A study of Arabidopsis thaliana with 18 samples.

Results

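The 37 genes described here are the core, variant and linker histone genes of Arabidopsis thaliana among the 28642 loci of the deposited expression tables. They were chosen by locus identifier alone and comprise 8 H4, 5 H3.1, 3 H3.3, 4 canonical H2A, 3 H2A.W, 3 H2A.Z and 7 H2B genes, 2 genes of the main linker histone H1, the stress-induced linker histone H1.3 and the centromeric variant CENH3. All 37 loci were present in the tables and all 37 passed the filter on low counts, which left 16499 genes. RNA was sequenced from the first pair of leaves of untreated seedlings on agar medium at 9 days after stratification (DAS), when leaf cells proliferate, and at 16 DAS, when they expand. The groups were wild type Columbia (WT, Col-0) and the lines P10 and P21, which carry PINOID (PID) behind the constitutive 35S promoter of a plant virus in the same background (35S::PID). PID is a protein kinase that steers the polar transport of auxin, and the comparisons ask how leaf age and PID overexpression change transcript levels. Groups held 3 libraries (replicates 1, 2 and 3) in WT and P10 and 2 (replicates 2 and 3) in P21 on each day, since P21 replicate 1 was not analysed here, and no source used here says whether RNA was pooled over plants. Each library is whole leaf tissue, so fewer cells of a type and less RNA per cell cannot be told apart.

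Histones package DNA: an octamer of H2A, H2B, H3 and H4 forms the nucleosome, and H1 binds the DNA that enters and leaves it. Canonical H2A, H2B, H3.1 and H4 are made mainly in S phase to cover newly copied DNA, whereas H3.3 and H2A.Z are also deposited outside replication, at active and at poised genes. H2A.W marks heterochromatin, and CENH3 replaces H3 at centromeres. In a leaf that leaves proliferation, cells either stop replicating or copy their DNA without dividing.

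The members differ in how closely their products resemble each other. All 8 H4 genes encode 1 protein of 103 residues, all 5 H3.1 genes 1 protein of 136 residues and all 3 H3.3 genes another of 136 residues. H3.3 differs from H3.1 at 4 positions, A31T, F41Y, S87H and A90L, with the H3.1 residue first and positions counted from the residue after the first methionine. CENH3 shares 43.8% of its residues with H3.1. The canonical H2A proteins are 92.4% to 95.4% identical to each other, 62.1% to 64% identical to H2A.W and 52.4% to 56.6% identical to H2A.Z. An SPKK run, the DNA-binding motif of H2A.W tails, lies in the last 20 residues of all 3 H2A.W proteins and of no other member. H1.3 is 33.1% to 35% identical to the other linker histones. Identical proteins do not make identical transcripts, since the coding sequences of the H4 genes share 78.8% to 98.1% of their bases. Unique reads therefore separate most members, but 35.6% of the reads on AT3G46320, 34.7% on AT3G45930, 30.8% on AT1G07820 and 28.4% on AT1G07660, all H4 genes, mapped to more than 1 place, and their unique counts are less certain. On the H3.1 gene AT3G27360, 30.9% of the reads were not unique, which leaves its unique count less certain too. However, only 1.28% of its windows of 50 bases recur in the genome, against 22.6% to 35.4% for those H4 genes. Its deposited region overlaps AT3G27380 on the same strand by 328 bases, and the source of its non-unique reads was not tested. Outside H4 and H3.1 the share of non-unique reads was at most 0.461% in any class, that of the canonical H2A genes.

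The stretch before the start of a histone gene often holds short motifs that in plants are tied to S phase expression. A window of 300 bases, 250 before and 50 after the start given in the deposited tables, was searched on both strands in the TAIR10.1 genome of RefSeq for the octamer CGCGGATC, for the hexamer ACGTCA and for the E2F site in the forms TTTCCCGC, TTTGGCGC, TTTCGCGC and TTTGCCGC. The octamer stood before 12 of the 37 members (32.4%), against 40 of 28008 windows of all genes (0.143%). The hexamer stood before 11 members (29.7%), against 9.33% of all windows, and an E2F form before 2 members, the H4 genes AT3G45930 and AT3G46320 (5.41%, against 1.94%). The octamer and the E2F forms can overlap at their CGC ends and the hexamer can share an end letter with an E2F form, and a match is a description of letters, not of a bound site. The windows shown are examples with and without the motifs: 2 octamers before the H3.1 gene AT1G09200, 1 before the strongest H4 gene AT5G59690, 2 on opposite strands before the H2A gene HTA10, a hexamer before the H2B gene HTB9, and none of them before the H3.3 gene AT4G40030 and the H2A.Z gene HTA11. The octamer stands before only 2 of the 8 H4 genes, and AT4G40030 is the 1 H3.3 gene of 3 with neither octamer nor hexamer. The run printed for AT4G40030 begins inside the region of its neighbour AT4G40040, which lies 214 bases away. Only bases before both the deposited and the RefSeq start are printed, since the RefSeq start lay farther out for 26 of the 37 members. Motif letters, on either strand, are in capitals, and each run reads 5′ to 3′ along the gene's strand.
AT1G09200 (chr1:2972335-2972449, minus strand): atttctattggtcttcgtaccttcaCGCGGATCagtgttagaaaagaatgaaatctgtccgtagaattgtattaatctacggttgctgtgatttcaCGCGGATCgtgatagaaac
AT5G59690 (chr5:24051302-24051473, plus strand): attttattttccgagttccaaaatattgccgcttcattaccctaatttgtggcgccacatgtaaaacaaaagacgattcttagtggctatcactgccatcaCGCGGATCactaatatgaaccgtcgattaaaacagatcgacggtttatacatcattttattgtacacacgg
AT1G51060 HTA10 (chr1:18926626-18926810, plus strand): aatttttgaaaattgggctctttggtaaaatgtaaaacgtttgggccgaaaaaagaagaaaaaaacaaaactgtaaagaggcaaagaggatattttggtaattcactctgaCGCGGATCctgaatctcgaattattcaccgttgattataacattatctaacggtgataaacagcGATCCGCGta
AT3G45980 HTB9 (chr3:16898014-16898263, minus strand): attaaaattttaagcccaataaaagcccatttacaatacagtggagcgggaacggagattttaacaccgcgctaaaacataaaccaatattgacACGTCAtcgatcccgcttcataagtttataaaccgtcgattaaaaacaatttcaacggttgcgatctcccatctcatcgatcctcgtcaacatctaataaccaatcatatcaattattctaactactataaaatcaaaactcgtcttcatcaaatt
AT4G40030 (chr4:18557107-18557222, minus strand): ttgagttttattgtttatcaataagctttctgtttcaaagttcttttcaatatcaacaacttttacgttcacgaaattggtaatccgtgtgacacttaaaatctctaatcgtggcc
AT3G54560 HTA11 (chr3:20196016-20196139, plus strand): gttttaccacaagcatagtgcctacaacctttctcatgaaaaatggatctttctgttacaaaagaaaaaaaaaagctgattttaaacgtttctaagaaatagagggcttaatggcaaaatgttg

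The motifs were spread unevenly over the classes. Windows were set by the deposited start, so some hits lie past the RefSeq start, as in HTB2, HTB4 and RAT5. Absences are limited in the same way. Of the 250 bases before the deposited start, 0 lay before the RefSeq start in the H4 gene AT3G53730, 93 in HTA12 and 116 in AT4G40030. In such genes the lack of a motif says little about the sequence before the RefSeq start. All 7 H2B genes had the hexamer, 3 of 4 canonical H2A genes and 3 of 5 H3.1 genes had the octamer, and 17 of the 24 genes of the replication-linked classes (H4, H3.1, H2A and H2B) had 1 or both (70.8%). Of the 6 H3.3 and H2A.Z genes, 2 had either motif (33.3%), both of them H3.3 genes, AT4G40040 and AT5G10980. The H2A.Z genes, HIS1-3 (the gene of H1.3) and CENH3 had none of the 3 motifs in this window. Of the H4 genes, 3 of 8 had the octamer or the hexamer, and 2 others an E2F form.

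**Figure D1:**
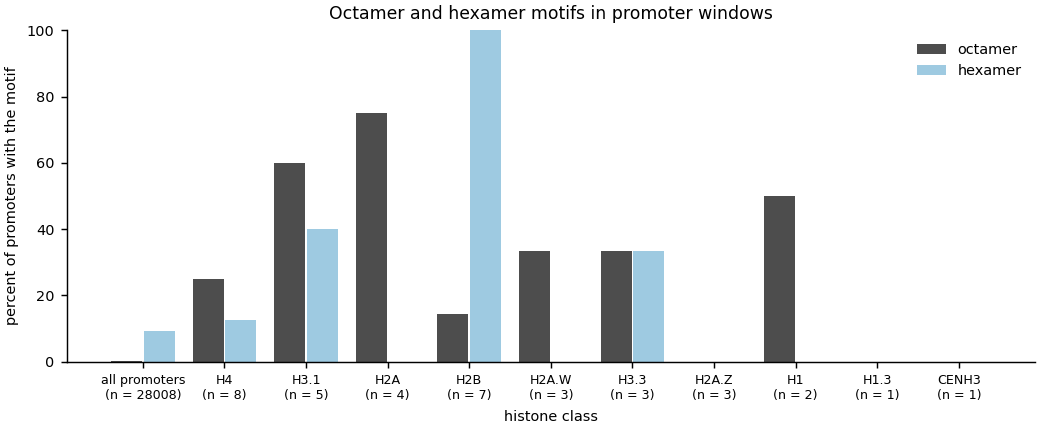
Percent of promoter windows of 300 bases with the octamer or with the hexamer, by histone class and for all genes. The hexamer is present in all 7 H2B windows, the octamer is most frequent in H2A (3 of 4) and H3.1 (3 of 5), and over all genes the shares are 0.143% for the octamer and 9.33% for the hexamer.

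Depth ran from 1193042 to 4695692 unique reads on genes per library, with a median of 2631344, and levels are given as CPM (counts scaled to a fixed library total) after TMM scaling, which evens out composition. PID itself, which checks the labels, was at 3.19 to 5.92 CPM in WT and at 367.7 CPM or more in every library of the lines. Genes were called at a Benjamini-Hochberg adjusted p under 0.05 over all 16499 genes and a log2 fold change beyond 0.75 (edgeR). By the labels, 1 index of the library kit separates WT and P10 at 9 DAS from all other libraries, so index and day cannot be told apart for WT and P10, nor index and line for P21 against WT at 9 DAS, while P21 over time and every comparison at 16 DAS lie within 1 index. P21 replicate 2 at 9 DAS also carries a lane label that differs from that of all other libraries, so P21 over time is not free of such a split. The summed level of 6 leaf mesophyll markers, which define the tissue, was 33590 to 47210 CPM at 9 DAS, and at 16 DAS 64640 to 72220 CPM in WT, 70320 to 75790 CPM in P21 and 44930 to 50090 CPM in P10. The 4 shoot meristem markers summed at 9 DAS to 4.44 to 8.98 CPM in WT, 1.25 to 5.79 CPM in P10 and 5.08 to 5.17 CPM in P21, with WUS at 0 reads in every library, and at 16 DAS to at most 0.396 CPM. The 5 clock genes, which follow the time of day, summed to 1273 to 1649 CPM at 16 DAS. A sum can hide opposite shifts of single genes. At 9 DAS their median log2 fold change over WT was -2.62 in P21 (from -6.33 to 1.05) and -0.16 in P10 (from -0.19 to 0.45). For the change of P21 against WT between the days it was 2.82 (from -1.04 to 7.03). In these comparisons 0 of the 5 were called. At 9 DAS replicate 2 of WT and replicate 2 of P10 stood apart from the other young libraries, with 1470 and 1315 CPM of clock genes against 291.1 to 742.6, and 34550 and 33590 CPM of mesophyll markers against 42800 to 47210. Without both, 35, 31 and 26 members were called over time in WT, P10 and P21, as with them, 0 for P10 and 14 for P21 against WT at 9 DAS (0 and 13 with them), and 2 and 11 for the changes of P10 and P21 against WT between the days (4 and 11). The part of these levels in the histone differences was not tested. Root markers reached at most 4.47 CPM in sum.

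In WT leaves, 34 of the 37 histone genes fell between 9 and 16 DAS, against 17.3% of all genes tested, and 1 rose, against 18.6%. The median log2 fold change of the members was -1.88, beside -0.04 over all genes, and the 3 WT libraries of each day did not overlap for 36 members, as for 54.5% of all genes. All 24 replication-linked genes fell, with a median of -1.96, and 5 of the 6 genes of H3.3 and H2A.Z fell, with a median of -1.27. The rise was that of the H2A.W gene HTA12, and the 2 genes not called were the H3.3 gene AT4G40030 and HIS1-3. Together the members took 0.513% to 0.585% of unique reads in young and 0.139% to 0.158% in older WT leaves. S phase genes moved less uniformly, with 11 of 17 lower and 1 higher (median -1.11), whereas all 13 mitosis genes fell (median -3.68).

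**Figure D2:**
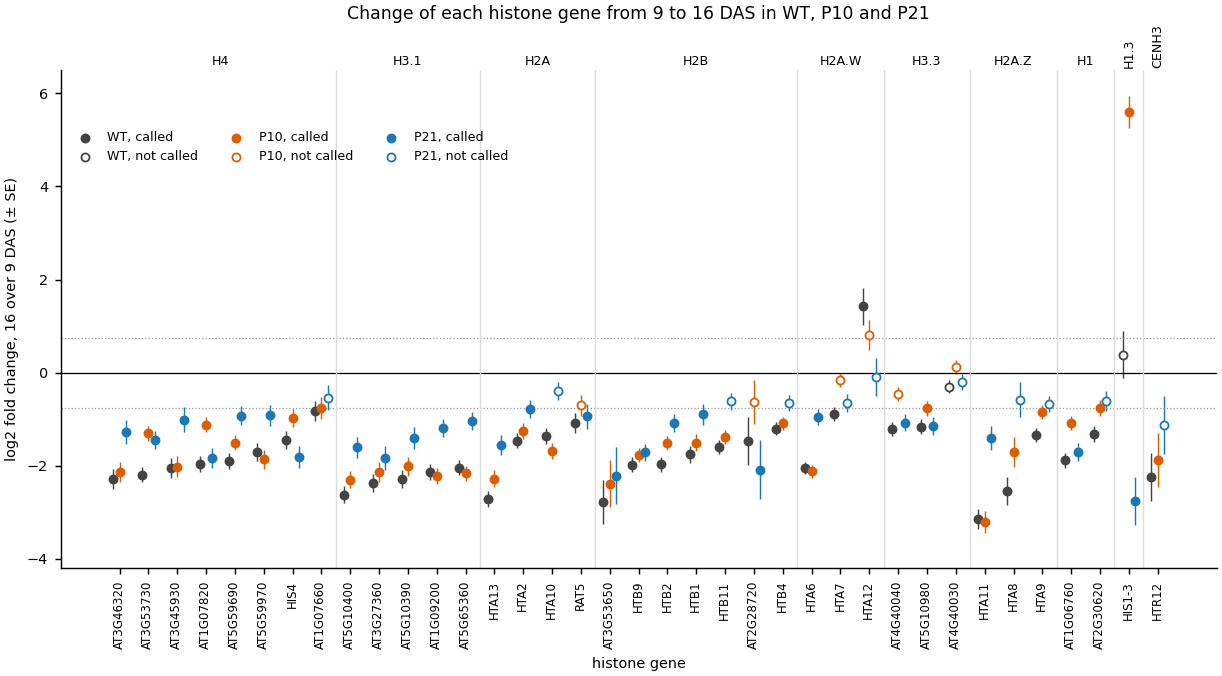
Log2 fold change from 9 to 16 DAS of each of the 37 members, by class, in WT, P10 and P21, with filled points for genes called and open points for the rest. In WT the replication-linked classes lie between -2.77 and -0.82, HTA11 is lowest at -3.14, and HIS1-3 stands apart in P10 at 5.60.

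Histone H4 forms the central tetramer of the nucleosome with H3. Its summed level was 956 ± 62.5 CPM in WT at 9 DAS (SD, n = 3) and 265.5 ± 21.8 CPM at 16 DAS, which is 3.6 times as much in the young leaf. Per kb of gene region the 8 genes ran in young WT leaves from 32.2 CPM per kb for AT1G07660 to 491 for AT5G59690. The strongest, AT5G59690, was at 299, 255 and 318 CPM in WT replicates 1, 2 and 3 at 9 DAS and at 84.8, 81.4 and 67.1 CPM at 16 DAS, a log2 fold change of -1.89 ± 0.17, adjusted p = 1.7e-08. The H4 gene that changed most, AT3G46320, went from 68.04, 59.2 and 87.6 CPM to 14.7, 12.9 and 17.9 CPM (-2.29 ± 0.21, adjusted p = 2.4e-08). AT1G07660 changed least, from 33.5, 22.7 and 30.4 CPM to 19.4, 14.9 and 14.2 CPM (-0.82 ± 0.22, adjusted p = 0.0045). In none of these did the days overlap, and the other 5 H4 genes fell by log2 fold changes within that span.

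H3.1 is the H3 that is loaded at the replication fork, and its summed level was 4.7 times as high at 9 DAS (574.7 ± 54.6 CPM) as at 16 DAS (122.2 ± 9.82 CPM). All 5 genes fell, within a narrow range of -2.62 to -2.04. AT5G65360, the strongest per kb, stood at 209.8, 152 and 206 CPM in young and 42.1, 42.7 and 55.1 CPM in older WT leaves (-2.04 ± 0.16, adjusted p = 3.0e-09), and it was also the least changed of the class. AT5G10400 fell most, from 126, 112 and 156 CPM to 15.6, 23.6 and 26.1 CPM (-2.62 ± 0.19, adjusted p = 9.3e-10). The 3 young libraries lay above the 3 older ones for each of the 5 genes.

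The replacement variant H3.3 was lower by less: its summed level was 908.5 ± 86.5 CPM at 9 DAS and 508.4 ± 19.7 CPM at 16 DAS, a ratio of 1.79. AT4G40030 was at 320.4, 262 and 302 CPM in young and at 233, 261 and 222 CPM in older WT leaves (-0.302 ± 0.14, adjusted p = 0.083), which did not pass the test. AT4G40040 fell from 484, 415 and 347 CPM to 181, 186 and 174 CPM (-1.203 ± 0.15, adjusted p = 2.0e-06). AT5G10980 fell from 203, 174 and 218 CPM to 82.9, 83.9 and 102 CPM (-1.16 ± 0.17, adjusted p = 9.1e-06). Both genes that fell have a motif in their window, the octamer in AT4G40040 and the hexamer in AT5G10980, while AT4G40030 has neither, and AT4G40030 and AT4G40040 lie only 214 bases apart.

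The balance of the H3 classes differed between the ages. Per kb of gene region, summed H3.1 over summed H3.3 was 1.22, 1.22 and 1.36 in the young WT libraries and 0.451, 0.483 and 0.511 in the older ones. Canonical H2A over H2A.Z stayed in the same range, at 1.87, 1.73 and 2.22 in young and 1.73, 2.39 and 2.01 in older WT leaves. The first ratio separated the days without overlap and the second did not. These sums over chosen genes are descriptions without a test. The gene region includes introns, and H3.3 genes have 3 or 4 coding exons against 1 in H3.1 genes. Whether H3.1 over H3.3 lies above or below 1 thus depends on the length used.

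**Figure D3:**
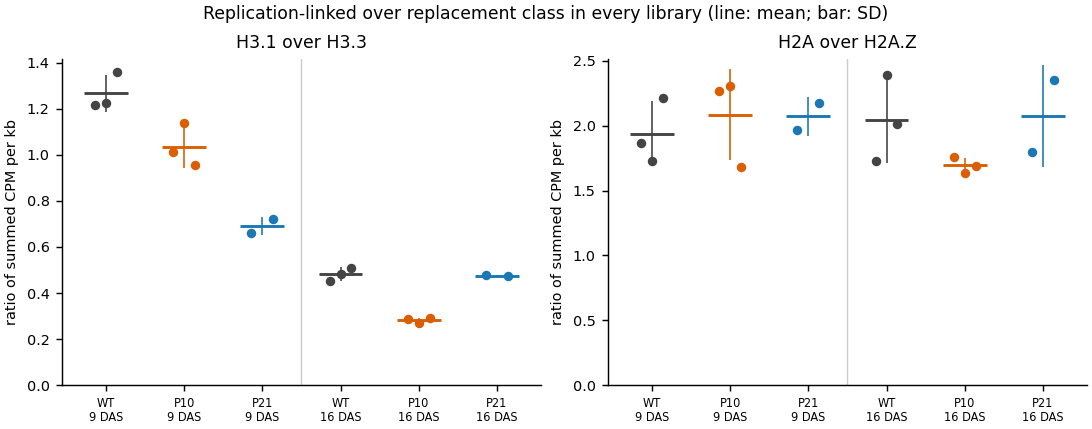
Ratio of summed CPM per kb of H3.1 to H3.3 and of H2A to H2A.Z in each library by genotype and day, with points for libraries, lines for group means and bars for the SD. H3.1 over H3.3 was 1.27 on average in WT at 9 DAS and 0.481 at 16 DAS, whereas H2A over H2A.Z was 1.94 and 2.04.

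Among the canonical H2A genes, which pair with H2B in the nucleosome, HTA10 was the strongest per kb and fell from 168, 123 and 177 CPM to 53.9, 67.01 and 61.9 CPM in WT (-1.36 ± 0.17, adjusted p = 1.5e-06). HTA13 changed most of the class, from 118, 94.3 and 129.8 CPM to 18.2, 15.9 and 18.6 CPM (-2.71 ± 0.17, adjusted p = 2.4e-10); 79 bases of its region overlap a gene on the other strand, which was at 40.5 CPM at 9 DAS and 43.2 CPM at 16 DAS on average. RAT5, named for resistance to Agrobacterium transformation in its mutant, changed least, from 52.9, 45.9 and 42.6 CPM to 18.5, 30.5 and 14.9 CPM (-1.08 ± 0.22, adjusted p = 4.3e-04). The days did not overlap for any of the 4 genes, HTA2 included.

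The 3 H2A.W genes did not move as a class. HTA6, the strongest of them, fell from 214, 201 and 184 CPM to 47.2, 52.9 and 43.97 CPM in WT (-2.04 ± 0.14, adjusted p = 3.5e-10). HTA7 fell less, from 111, 90.3 and 102 CPM to 48.1, 67.3 and 46.95 CPM (-0.88 ± 0.15, adjusted p = 1.0e-04). HTA12 was the single member that rose in WT, from 4.25, 6.91 and 1.79 CPM to 9.56, 11.2 and 13.4 CPM (1.42 ± 0.39, adjusted p = 0.005), but it was by far the weakest of the class at 8.07 CPM per kb over all groups. Its WT libraries did not overlap between the days, with 5 to 14 reads behind each value at 9 DAS.

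H2A.Z, found at the first nucleosomes of genes, was at 324.8 ± 25.9 CPM in sum in young and at 94.7 ± 6.94 CPM in older WT leaves, a ratio of 3.43 beside 3.08 for canonical H2A, and its genes differed widely. HTA11 fell most of all 37 members, from 102, 85.4 and 99.1 CPM to 13.1, 10.9 and 6.71 CPM, which is 8.81-fold (-3.14 ± 0.22, adjusted p = 7.3e-10). HTA8 fell from 34.5, 20.2 and 31.5 CPM to 3.83, 5.71 and 5.22 CPM (-2.54 ± 0.30, adjusted p = 8.7e-07). HTA9, the strongest, fell from 218, 199 and 185 CPM to 85.8, 73.2 and 79.7 CPM (-1.33 ± 0.14, adjusted p = 2.7e-07). HTA9 gave most of the H2A.Z reads in WT at both ages. No day overlapped the other in any of the 3, none of which has a promoter motif searched for.

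The 7 H2B genes summed to 1101 ± 90.4 CPM in young WT leaves, the highest class sum in CPM at that age. In older ones they summed to 359.6 ± 37.3 CPM, below the 508.4 CPM of H3.3. These sums do not allow for gene length. The per kb values divide by the gene region with its introns. H3.3 genes have 3 or 4 coding exons and H2B genes 1, so their order depends on the length used. Per kb, H2B was at 436.1, 505 and 530 CPM in older WT leaves, above H3.3 at 360.9, 385.6 and 366.7. In young ones H2B was at 1672, 1430 and 1490 CPM per kb, below H4 of the same replicate at 1690, 1539 and 1746. HTB4 was the strongest per kb and the least changed, from 369, 284 and 323 CPM to 126, 149 and 149 CPM (-1.21 ± 0.14, adjusted p = 9.7e-07). The weak gene AT3G53650 changed most, from 18.4, 11.3 and 15.02 CPM to 4.14, 0.745 and 1.49 CPM (-2.77 ± 0.48, adjusted p = 7.9e-05). The log2 fold changes of the other 5, HTB1, HTB2, HTB9, HTB11 and AT2G28720, lay between these, and all 7 have the hexamer. HTB1 went from 77.96, 86.4 and 104 CPM to 21.7, 27.1 and 32.8 CPM (-1.75 ± 0.18, adjusted p = 1.8e-07).

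The linker histones split between the main genes and the stress-induced one. AT1G06760 fell from 268, 188 and 198 CPM to 56.8, 61.3 and 59.6 CPM in WT (-1.88 ± 0.16, adjusted p = 1.0e-08). AT2G30620 fell from 227, 179.7 and 181 CPM to 73.7, 89.3 and 72.3 CPM (-1.31 ± 0.18, adjusted p = 4.4e-06). HIS1-3, a divergent H1 known to be induced by drought and abscisic acid, was low at both ages, at 1.89, 1.97 and 3.94 CPM and 4.78, 3.72 and 0.745 CPM (0.39 ± 0.51, adjusted p = 0.56), and the days overlapped. CENH3, the H3 of centromeres and needed for cell division, fell from 9.45, 5.92 and 8.94 CPM to 1.91, 2.23 and 0 CPM (-2.24 ± 0.52, adjusted p = 0.0013). The value of 0 stands for 0 reads, which at a floor of 3 reads allows 2.24 CPM in that library.

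**Figure D4:**
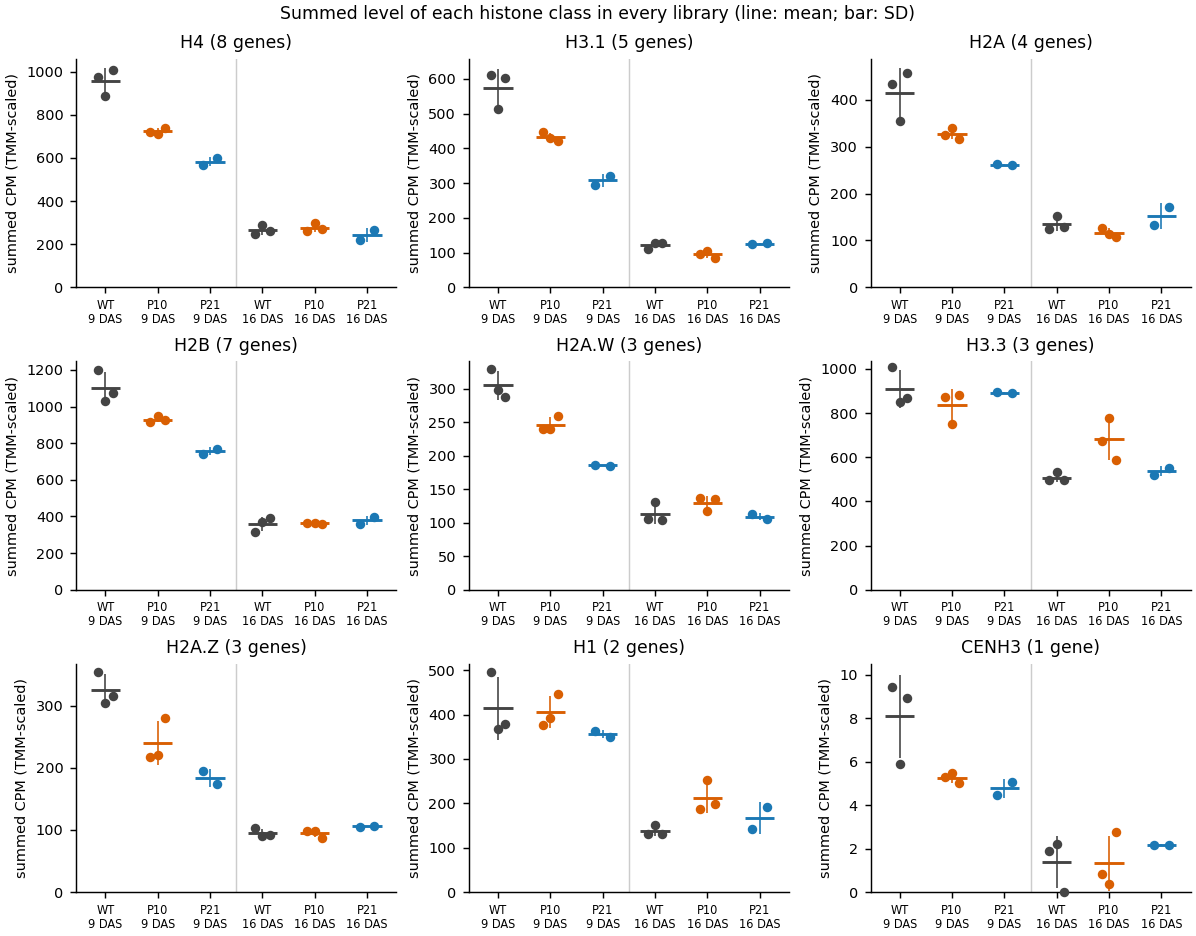
Summed CPM of each histone class but H1.3 in each library, by genotype and day, with points for libraries, lines for group means and bars for the SD. H4 had 956 CPM in WT, 724 in P10 and 583.5 in P21 at 9 DAS and 244.3 to 277.3 on average at 16 DAS, and H3.3 at 9 DAS stood at 92.1% of WT in P10 and 98.3% in P21.

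At 9 DAS histone genes were called between P21 and WT and none between P10 and WT. The mean was highest in WT, intermediate in P10 and lowest in P21 for 30 of the 37 members, against 25.6% of all genes, and for 22 of the 24 replication-linked genes, an order of means that was not tested. P21 was lower than WT for 12 members (2.78% of all genes) and higher for 1 (2.61%), with a median log2 fold change of -0.59 and no overlap of the libraries for 30, against 37.8% of all genes. For P10, 0 members were called higher (0.206% of all genes) and 0 lower (0.133%) by edgeR, while 17 passed an unadjusted p under 0.05 (12.2% of all genes) and 16 did not overlap with WT (17.1%). DESeq2 and limma also called 0, the median was -0.33, and without WT replicate 2 the H2A gene HTA13 was called. Of the 12 genes lower in P21, 9 belong to the replication-linked classes, and all 12 also fell with age in WT; both comparisons rest on the same young WT libraries. Without P21 replicate 3 the number called in P21 was 7, and index and line cannot be told apart here.

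Among the H4 genes, 4 were lower in young P21 leaves. AT5G59690 was at 202, 198 and 219.9 CPM in P10 and 153 and 147 CPM in P21, against the young WT values given above (-0.95 ± 0.18, adjusted p = 0.0038 for P21). AT5G59970 was at 100.2, 88.3 and 111 CPM in WT, 76.7, 62.2 and 64.5 CPM in P10 and 53.4 and 60.3 CPM in P21 (-0.81 ± 0.20, adjusted p = 0.02). The 2 other genes share many reads with other H4 genes. AT3G46320 was at 47.3, 51.5 and 62.03 CPM in P10 and 35.8 and 31.8 CPM in P21 (-1.09 ± 0.21, adjusted p = 0.0044), and AT3G45930 at 52.5, 53.8 and 60.1 CPM in WT, 41, 43.3 and 35.7 CPM in P10 and 26.2 and 27.6 CPM in P21 (-1.04 ± 0.22, adjusted p = 0.0073). For all 4, P21 lay below every WT library. The other H4 genes were not called, with HIS4 at 129.5, 129 and 113 CPM in WT, 94.9, 108 and 92.1 CPM in P10 and 98.5 and 104 CPM in P21, and AT1G07660 at 26.8, 22.6 and 33.2 CPM in P10 and 21.7 and 28.9 CPM in P21. In P21, AT1G07820 was at 65.8 and 82.5 CPM and AT3G53730 at 114 and 117 CPM.

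Of the H3.1 genes 4 of 5 were lower in P21, and the class was at 53.5% of WT in P21 and 75.2% in P10, whereas H3.3 was at 98.3% and 92.1%. AT5G65360 was at 144, 131 and 135 CPM in P10 and 93.4 and 100 CPM in P21 (-0.97 ± 0.17, adjusted p = 0.0021). AT5G10400 was at 106, 101 and 89.6 CPM in P10 and 59.95 and 71.4 CPM in P21 (-1.0 ± 0.19, adjusted p = 0.0036). AT1G09200, the gene with 2 octamers, was at 152, 153 and 131 CPM in WT, 121, 112 and 113 CPM in P10 and 79.9 and 89.8 CPM in P21 (-0.77 ± 0.17, adjusted p = 0.01). The overlapping gene AT3G27360 was at 63.3, 45.4 and 63.3 CPM in WT, 36.5, 42.97 and 36.3 CPM in P10 and 28.2 and 25.1 CPM in P21 (-1.11 ± 0.20, adjusted p = 0.0021). No P21 library reached a WT library for any of them. Summed H3.1 over H3.3, per kb, was accordingly 1.01, 1.14 and 0.956 in P10 and 0.662 and 0.72 in P21, below each of the WT libraries.

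The H3.3 genes were not called in either line at 9 DAS. AT4G40030 was at 304, 255 and 264 CPM in P10 and 282 and 301 CPM in P21, within the WT range for 2 of the P10 and both P21 libraries. AT4G40040 was at 355, 327 and 415 CPM and 430.0 and 377 CPM, and AT5G10980 at 215, 169.7 and 204 CPM and 185 and 211 CPM. The libraries of each line overlapped those of WT in all 3.

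Of the H2A families, 1 canonical gene, 1 H2A.W gene and 2 H2A.Z genes were lower in young P21 leaves. HTA13 was at 78.5, 72.8 and 62.6 CPM in P10 and 55.5 and 58.1 CPM in P21 (-1.01 ± 0.18, adjusted p = 0.002). The H2A.W gene HTA6 was at 148, 141 and 159.8 CPM and 95.4 and 101 CPM (-1.02 ± 0.15, adjusted p = 4.4e-04). The H2A.Z genes that fell most with age in WT were those that were lower in P21. HTA11 was at 68.3, 76.8 and 87.1 CPM in P10 and 42.03 and 38.4 CPM in P21 (-1.25 ± 0.22, adjusted p = 0.002), and HTA8 at 14.7, 12.2 and 20.7 CPM and 12.1 and 8.57 CPM (-1.48 ± 0.30, adjusted p = 0.0062). The other members of these families were not called. RAT5 was at 39.2, 42.7 and 44.5 CPM in P10 and 45.1 and 32.1 CPM in P21, HTA7 at 80.99, 88.7 and 93.3 CPM and 79.6 and 75.9 CPM, and HTA12 at 10.9, 9.75 and 6.26 CPM and 11.02 and 7.94 CPM, where P21 lay above all WT libraries. HTA9 was at 134, 132 and 173 CPM and 140.2 and 127 CPM and was not called. No H2B gene was called in either line at this age, and 6 of 7 had no overlap between P21 and WT, as had 37.8% of all genes. HTB4 was at 288, 253 and 301 CPM in P10 and 206 and 225 CPM in P21, and AT3G53650 at 11.9, 10.97 and 11.9 CPM and 8.27 and 9.21 CPM. CENH3 was at 5.32, 5.49 and 5.01 CPM in P10 and 4.48 and 5.08 CPM in P21, below each WT library but not called.

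The main linker histones stood in sum at 98% of WT in P10 and 86.1% in P21. AT1G06760 was at 197, 214 and 231 CPM in P10 and 189.5 and 192 CPM in P21, and AT2G30620 at 179.7, 179 and 216 CPM and 173 and 159 CPM, none of it called. HIS1-3 was the single member higher in young P21 leaves, at 12.8 and 15.2 CPM against 3.04, 2.13 and 4.39 CPM in P10 and the low WT values (2.35 ± 0.44, adjusted p = 0.0035 for P21 over WT).

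Histone genes also fell with age in both lines. In P10, 30 members fell from 9 to 16 DAS (14.4% of all genes) and 1 rose (16.6%), with a median of -1.501, and the libraries of the days did not overlap for 34 (50.5% of all genes). In P21, 26 fell (11%) and 0 rose (12.7%), with a median of -1.08 and 36 members without overlap (66.4% of all genes). In P21, 31 members had an unadjusted p under 0.05 (39.1% of all genes), and limma on RPKM values called 34 and DESeq2 26. In all, 22 members fell in all 3 genotypes, 9 fell in WT and were not called in P21, and the replication-linked genes contributed 22 of the 30 calls in P10 and 20 of the 26 in P21. The calls covered all 5 H3.1 genes in each genotype, all 8 H4 genes in P10 and 7 in P21, but of the H2A.Z genes 3 in WT and P10 and 1 in P21. The count in P21 was 21 without P21 replicate 2 at 16 DAS.

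Summed H4 was at 265.5 ± 21.8 CPM in older WT leaves, 277.3 ± 19.3 CPM in P10 and 244.3 ± 32.7 CPM in P21. AT5G59690 was at 60.7, 61.7 and 94.7 CPM in P10 at 16 DAS (-1.501 ± 0.17, adjusted p = 5.5e-07 over 9 DAS) and at 76.4 and 81.5 CPM in P21 (-0.93 ± 0.20, adjusted p = 0.0018). AT5G59970 was at 25.5, 37.97 and 27.6 CPM in WT, 15.6, 20.3 and 19.02 CPM in P10 (-1.86 ± 0.20, adjusted p = 4.6e-07) and 22.8 and 36.6 CPM in P21 (-0.92 ± 0.23, adjusted p = 0.0054). In this gene every P10 library lay below every WT library at 16 DAS, with a difference of -0.72 ± 0.21, adjusted p = 0.018 that missed the fold threshold. P10 and WT did not overlap at 16 DAS for 15 of the 37 members, beside 39.4% of all genes. AT3G46320 was at 9.85, 14.6 and 11.1 CPM in P10 and 11.4 and 15.99 CPM in P21, and AT3G45930 at 13.1, 14.4 and 11.9 CPM in WT, 15.6, 9.58 and 6.74 CPM in P10 and 10.97 and 15.4 CPM in P21. AT3G53730 was at 41.2 and 43.4 CPM in P21. AT1G07660, at 17.2, 18.01 and 13.1 CPM in P10 and 16.7 and 18.1 CPM in P21, was the single H4 gene not called over time in P21 (-0.54 ± 0.26, adjusted p = 0.14).

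All 5 H3.1 genes fell in both lines. AT5G65360 was at 32.8, 32.6 and 26.9 CPM in P10 (-2.16 ± 0.17, adjusted p = 3.9e-09) and 47.4 and 46.7 CPM in P21 (-1.04 ± 0.19, adjusted p = 4.1e-04). AT5G10400 was at 18.1, 21.1 and 20.6 CPM in P10 (-2.298 ± 0.19, adjusted p = 1.1e-08) and 22.4 and 20.9 CPM in P21 (-1.604 ± 0.22, adjusted p = 2.7e-05). The P10 libraries of AT5G65360 lay below those of the other genotypes at 16 DAS, and those of AT5G10400 did not. Of all genes, 39.4% did not overlap between P10 and WT at 16 DAS and 47.8% between P10 and P21. AT1G09200 was at 33.2, 36.7 and 27.6 CPM in WT, 24.6, 30.3 and 19.02 CPM in P10 and 35.5 and 38.4 CPM in P21, and AT3G27360 at 10.2, 12.4 and 10.4 CPM, 8.21, 9.58 and 8.32 CPM and 7.90 and 7.07 CPM. AT5G10390 ran from 9.51 to 14.8 CPM over all libraries at 16 DAS.

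Of the H3.3 genes, AT4G40030 was in P10 at 289, 339.9 and 267 CPM (0.12 ± 0.14, adjusted p = 0.53), and was at 241 and 269 CPM in P21 (-0.19 ± 0.17, adjusted p = 0.43), neither of them called. AT4G40040 was at 263, 304 and 233 CPM in P10 (-0.46 ± 0.15, adjusted p = 0.019, short of the fold threshold) and fell to 185 and 198 CPM in P21 (-1.07 ± 0.18, adjusted p = 2.2e-04). AT5G10980 fell in both lines, to 124, 134 and 89.5 CPM in P10 (-0.76 ± 0.16, adjusted p = 8.3e-04) and 93.9 and 84.8 CPM in P21 (-1.15 ± 0.20, adjusted p = 2.6e-04). For AT4G40030 and AT4G40040 every P10 library lay above every WT library at 16 DAS, where 39.4% of all genes did not overlap between P10 and WT.

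Within the H2A families the lines differed from WT in which genes were called over time: HTA7 was called lower in WT but not in P10 or P21, HTA12 was called higher in WT alone, HTA8, HTA9 and HTA10 were called lower in WT and P10 but not in P21, and RAT5 in WT and P21 but not in P10. Of these genes, the test of the difference in change from WT called HTA8 and HTA10 in P21 and none in P10. HTA13 was at 12.3, 16.5 and 14.7 CPM in P10 and 17.6 and 20.9 CPM in P21, HTA10 had been at 135, 145 and 132 CPM in young P10 leaves (-1.69 ± 0.17, adjusted p = 1.9e-07 over time), and RAT5 was at 28.7, 27.2 and 22.2 CPM and 17.6 and 22.4 CPM. HTA10 fell in P10 but was not called in P21 (-0.397 ± 0.20, adjusted p = 0.15). HTA6 was at 36.1, 32.96 and 34.5 CPM in P10 (-2.12 ± 0.14, adjusted p = 6.3e-10), whereas HTA7 was at 86.2, 70.9 and 80.03 CPM in P10 (-0.15 ± 0.15, adjusted p = 0.46, not called) and 50.03 and 48.6 CPM in P21. For HTA7 each P10 library lay above all other libraries of that age, and for HTA6 each lay below them. The shares of all genes without overlap at that age were 39.4% for P10 and WT and 47.8% for P10 and P21. HTA12 was at 13.9, 14.2 and 20.2 CPM in P10 and 11.4 and 6.76 CPM in P21. HTA9 was at 82.9, 86.2 and 74.5 CPM in P10 (-0.84 ± 0.14, adjusted p = 8.8e-05) and 85.1 and 83 CPM in P21 (-0.67 ± 0.17, adjusted p = 0.0069), and HTA8 at 4.10, 6.13 and 3.57 CPM in P10 (-1.702 ± 0.33, adjusted p = 3.1e-04). HTA11 fell in both lines, with log2 fold changes of -3.197 ± 0.24, adjusted p = 2.6e-09 in P10 and -1.402 ± 0.26, adjusted p = 4.4e-04 in P21.

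Summed H2B at 16 DAS was 364.3 ± 2.96 CPM in P10 and 378.5 ± 25.1 CPM in P21 (n = 2), beside 359.6 ± 37.3 CPM in WT, though single genes differed more. HTB4 was at 129.7, 138 and 128 CPM in P10 and 123 and 150.0 CPM in P21, and the weak AT3G53650 at 0.821, 1.15 and 3.96 CPM and 3.07 and 0.922 CPM. HTB2 went in P10 from 179.5, 192 and 157 CPM to 69.8, 62.9 and 54.3 CPM (-1.51 ± 0.15, adjusted p = 1.7e-07), and HTB11 from 156, 139.9 and 177 CPM to 60.7, 58.2 and 62.6 CPM (-1.38 ± 0.15, adjusted p = 6.2e-07). Both also fell in WT. AT2G28720 was the least even member, from 18.2 to 67.6 CPM among the young libraries, and was called lower in WT and P21 but not in P10 (-0.64 ± 0.47, adjusted p = 0.31). At 16 DAS it was at 27.1, 26.1 and 26.5 CPM in P10, above the 7.97, 14.6 and 14.2 CPM of WT and the 11.4 and 7.68 CPM of P21 without overlap, but was not called over either (1.13 ± 0.53, adjusted p = 0.15 over WT, 1.497 ± 0.62, adjusted p = 0.12 over P21). CENH3 was at 0.821, 0.383 and 2.77 CPM in P10 (-1.88 ± 0.58, adjusted p = 0.014) and 2.19 and 2.15 CPM in P21 (-1.12 ± 0.63, adjusted p = 0.19, not called).

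Few histone genes were called between the genotypes at 16 DAS. In P21 against WT, 0 members were called higher (0.0667% of all genes) and 0 lower (0.0606%) by edgeR, as by DESeq2 and limma, with 5 at an unadjusted p under 0.05, beside 9.06% of all genes, and a median of 0.03. In P10 against WT, 2 members were higher (8.1%) and 0 lower (7.69%), with a median of -0.02. Both were linker histones. Summed H3.1 was at 77.4% of WT in P10 and summed H3.3 at 134%. These percentages depend on the TMM factors, which were 0.849 to 0.887 in WT and 0.969 to 1.03 in P10 at 16 DAS. The ratio of H3.1 to H3.3 within a library does not depend on them. Per kb it was 0.285, 0.27 and 0.29 in P10, below every WT library, against 0.478 and 0.473 in P21. No H3.1 or H3.3 gene was called on its own.

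HIS1-3 showed the largest difference of any member at this age. It was at 174, 136 and 132 CPM in P10, with 212, 355 and 334 reads, and at 3.95 and 0.615 CPM in P21, against 4.78, 3.72 and 0.745 CPM in WT. The P10 libraries lay above all 13 others of the series, and the log2 fold change was 5.34 ± 0.33, adjusted p = 5.9e-09 over WT, which is 40.6-fold, and 6.14 ± 0.43, adjusted p = 4.4e-08 over P21. It also rose in P10 from 9 to 16 DAS (5.600 ± 0.34, adjusted p = 5.4e-10), while in P21 it fell from its raised young level (-2.76 ± 0.51, adjusted p = 5.3e-04). Each of these calls was kept in all 25 other settings, those without 1 library included.

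The main linker histone AT1G06760 was at 87.01, 118 and 95.9 CPM in P10 at 16 DAS and at 55.7 and 60.9 CPM in P21, with log2 fold changes of 0.77 ± 0.16, adjusted p = 0.0019 over WT and 0.79 ± 0.18, adjusted p = 0.0042 over P21. The P10 values lay above those of the other genotypes, but the difference sits at the fold threshold, and the call over WT was kept in 14 of 25 settings. It was lost without 1 of 10 of the 16 libraries, and the count was 1 without WT replicate 1 or 2, P10 replicate 1 or 2 or either P21 replicate at 9 DAS, or P21 replicate 3 at 16 DAS. AT2G30620 was at 100.1, 134 and 102 CPM in P10 and 85.6 and 132 CPM in P21 and was not called.

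The direct comparison of the lines at 16 DAS called 4 members higher in P10 (7.59% of all genes) and 2 lower (7.32%), with a median of -0.09. Beside the linker histones, 2 H4 genes were higher in P10. AT1G07820 was at 41.04, 44.5 and 36.9 CPM in P10 and 16.7 and 24.3 CPM in P21 (0.97 ± 0.21, adjusted p = 0.0023), and HIS4 at 52.5, 59.02 and 39.2 CPM and 25.01 and 32.3 CPM (0.797 ± 0.23, adjusted p = 0.017). The H2A gene HTA10 was lower, at 45.1, 44.8 and 38.4 CPM and 59.2 and 87.3 CPM (-0.79 ± 0.19, adjusted p = 0.006), and so was HTA11, at 11.5, 5.37 and 9.51 CPM and 13.2 and 16.9 CPM (-0.86 ± 0.28, adjusted p = 0.038). The lines did not overlap in any of the 6 genes, which were picked by this same comparison, and in 47.8% of all genes. Without P21 replicate 2 the count was 3 and without P21 replicate 3 it was 4, and without P10 replicate 3 it was also 4.

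**Figure D5:**
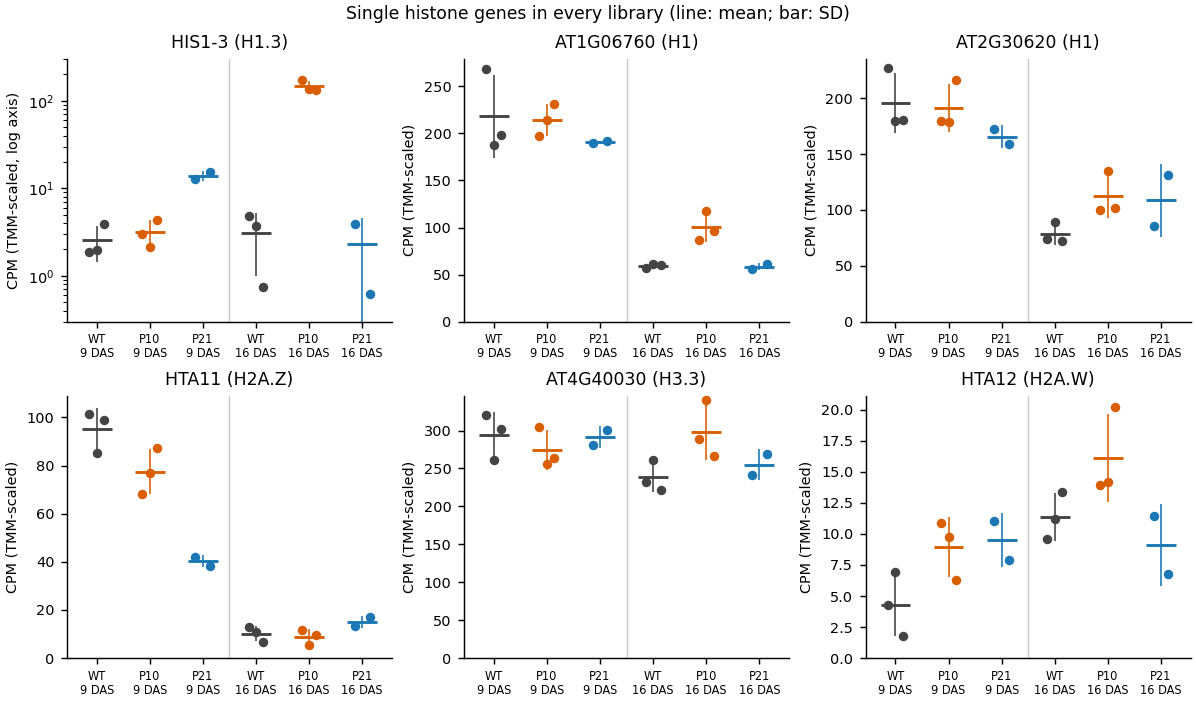
CPM in every library of selected members by genotype and day, with group means and SD; the HIS1-3 panel has a log axis and its SD bar runs to the axis where the mean minus the SD is not above 0. HIS1-3 lies between 132.3 and 174 CPM in P10 at 16 DAS and at 15.2 CPM or lower in all other libraries.

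Whether the decline itself differed between genotypes was tested as the interaction of line and day. Of the 35 members with a negative log2 fold change in WT, the difference in fold change was positive for 33 in P21 (94.3%) and for 29 in P10 (82.9%), whether called or not. Of all 8536 genes with a negative value in WT, it was positive for 67.9% in P21 and 65.7% in P10, and both quantities use the same WT libraries. Index and the change of P21 cannot be told apart, since of these 4 groups only WT at 9 DAS carries the other index, whereas for P10 both genotypes change index together. For P21, 10 members were called with a smaller decline (1.7% of all genes) and 1 in the other direction (1.47%), with a median difference of 0.71. Of those 10, 7 were also lower in P21 at 9 DAS, which uses the same libraries. The 7 replication-linked genes among them were AT5G59690, AT1G09200, AT5G65360, HTA13, HTA10, HTB2 and HTB11, and the others were HTA6, HTA8 and HTA11. HTB2 was at 247, 224 and 221 CPM in WT and 131 and 148 CPM in P21 at 9 DAS and at 53.9, 69.5 and 51.4 CPM and 63.2 and 68.9 CPM at 16 DAS, a difference in log2 fold change of 0.89 ± 0.24, adjusted p = 0.042. HTB11 was at 203, 155 and 184 CPM and 112 and 134 CPM at 9 DAS and at 55.5, 57.6 and 67.8 CPM and 72.4 and 87.6 CPM at 16 DAS (0.98 ± 0.24, adjusted p = 0.028). In HTB2 the older libraries of WT and P21 overlapped after starting apart, while in HTB11 older P21 leaves lay above WT. HTA10 was at 96.8 and 97.2 CPM in young P21 leaves (0.96 ± 0.26, adjusted p = 0.046). The largest such difference beside HIS1-3 was that of HTA8, at 7.02 and 6.76 CPM in older P21 leaves (1.97 ± 0.48, adjusted p = 0.03), followed by HTA11 (1.74 ± 0.34, adjusted p = 0.0097).

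These calls for P21 lay close to the thresholds. The count of 11 was 1 without P21 replicate 3 at 16 DAS, 2 without either P21 library at 9 DAS, 3 without replicate 1 of WT at either day, 6 without P21 replicate 2 at 16 DAS, WT replicate 3 at 9 DAS or WT replicate 2 at 16 DAS, and 7 without P10 replicate 3 at 9 DAS. The 1 gene called without P21 replicate 3 at 16 DAS was HTA6, at 47.2, 52.9 and 43.97 CPM in WT and 51.8 and 49.8 CPM in P21 at that age (1.09 ± 0.21, adjusted p = 0.0093 with all libraries).

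For P10, 4 members were called with a smaller decline or a rise (2.08% of all genes) and 0 in the other direction (2.62%), with a median difference of 0.36. They were HIS1-3 (5.21 ± 0.69, adjusted p = 3.7e-04), AT1G06760 (0.79 ± 0.22, adjusted p = 0.042) and the H4 genes AT3G53730 (0.89 ± 0.23, adjusted p = 0.031) and AT1G07820 (0.84 ± 0.24, adjusted p = 0.047). AT3G53730 was at 180.5, 162 and 169.9 CPM in WT and 144, 133 and 147 CPM in P10 at 9 DAS and at 30.6, 36.98 and 46.95 CPM and 48.4, 70.9 and 51.5 CPM at 16 DAS. AT1G07820 was at 112, 116 and 117 CPM and 88.1, 91.7 and 85.2 CPM at 9 DAS and at 26.1, 35.99 and 25.3 CPM in WT at 16 DAS. At 16 DAS 5 of the 8 H4 genes had a negative log2 fold change in P10 over WT. AT3G53730 and AT1G07820, picked by the test of the change itself, stood lower in young and higher in older P10 leaves than in WT on average. The count was 1 without WT replicate 1 at either day, P10 replicate 1 or 2 at 9 DAS or P10 replicate 2 at 16 DAS, and 2 without WT replicate 3 at 16 DAS, P10 replicate 3 at 9 DAS or either P21 library at 9 DAS; HIS1-3 was kept in all settings.

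Genes around histone supply are given next, beside the shares over all genes. Of 17 S phase genes, 11 fell with age in WT (17.3% of all genes) and 15 in P10 (14.4%, median -2.08), while in P21 edgeR called 0 lower (11%) and 1 higher (12.7%), the same 1 that passed an unadjusted p under 0.05 (median -0.04). PCNA1, the sliding clamp of DNA polymerase, had a log2 fold change of -2.15 in WT, and the replicative helicase subunits MCM4 and MCM5 -2.08 and -1.86. RNR2A, a subunit of ribonucleotide reductase, rose in P21 by 1.41. In young P21 leaves 4 of the 17 were lower than in WT (2.78% of all genes), and at 16 DAS 6 were lower in P10 than in P21 (7.32%). In P21, 20 of 24 replication-linked histone genes were called lower between the days and 0 of 17 S phase genes, and this difference between the lists was not tested. The change between the days differed between P21 and WT for 3 S phase genes, all in the positive direction (1.7% of all genes), and between P10 and WT for 0. All 13 mitosis genes fell in each of the 3 genotypes, with medians of -3.68 in WT, -3.49 in P10 and -2.53 in P21.

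Of 20 genes for histone chaperones and deposition, 5 fell (17.3% of all genes) and 2 rose (18.6%) with age in WT, shares not far from those of all genes. Those that changed most were TSK, which acts in chromatin replication, at -1.89, FAS2 of the CAF-1 complex that loads H3.1 at -1.59 and the H3-H4 chaperone ASF1B at -1.58. In P10, 4 fell (14.4% of all genes), led by TSK at -2.44, FAS2 at -1.71 and FAS1 at -1.31. In P21, 3 rose (12.7% of all genes) and 0 fell (11%), those that rose being the nucleosome assembly proteins NAP1;3 at 1.51 and NAP1;1 at 0.86 and the H2A-H2B chaperone NRP2 at 1.05. At 9 DAS 2 were lower in P21 than in WT (2.78% of all genes), ASF1B at -1.32 and NRP2 at -0.94, and at 16 DAS 5 were lower in P10 than in WT (7.69%).

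Of 12 further histone genes outside the set, 6 passed the filter, and in WT 5 of these fell (17.3% of all genes) and 1 rose (18.6%). HTR11, an H3-like gene, fell, with 8 to 10 reads in each young and 0 to 1 in each older WT library, the H2B gene AT3G09480 had a log2 fold change of -2.57, and the H2A-like gene HTA4 rose by 2.04. In young P21 leaves 3 were lower than in WT (2.78% of all genes), the H2B gene AT2G37470 at -0.96 and the genes of H2A.X, a variant tied to DNA breaks, at -0.88 and -0.77.

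Members with and without the promoter motifs overlapped in the size of their decline. In WT the 21 members with the octamer or the hexamer had a median log2 fold change of -1.89 (from -2.77 to -0.82), and the 16 members without either a median of -1.58 (from -3.14 to 1.42). HTA11, whose window printed above has no motif, fell more than AT5G59690 or AT1G09200, whose windows have the octamer. The members not called lower in WT, HTA12 (1.42), HIS1-3 (0.39) and AT4G40030 (-0.30), were all among those without either motif. For HTA12 and AT4G40030 only 93 and 116 of the bases searched lay before the RefSeq start. The range of the members with a motif lies inside that of the members without, and this split is a description with no test.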

How the data were processed

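Messenger RNA of the first leaf pair was sequenced after TruSeq Stranded mRNA preparation, and the authors mapped reads to TAIR10 with CLC Genomics Workbench at default settings; whether strand was used in counting is not given in the sources used here. The deposited tables give, per locus and library, unique gene read counts, total gene read counts, RPKM (total reads per kb of gene region, scaled by the authors to library size) and positions. Values of 16 of 18 labelled libraries were analysed, 405 further per-sample columns were not used, and the authors' own fold changes and p-values were not used.

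Unique counts were TMM-scaled and tested with the edgeR 4.0.16 quasi-likelihood test (R 4.3.3) over 16499 genes after filterByExpr, which removed 12143, with 1 mean per genotype and day and 10 residual degrees of freedom. The scripts were tested on simulated data. Adjusted p-values are Benjamini-Hochberg over all genes tested. No source says that replicates came from separate cultures, so p-values measure the spread between these libraries (common biological variation 18.8%), and read floors cover counting error only. Alternatives were DESeq2, limma on log2(RPKM + 1), total reads, other filters and thresholds, the groups compared alone, a replicate block and leaving out each library.

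Members, lists and tests were chosen with earlier results of these data known. All 37 members are named; per-library values are given for the strongest, most and least changed gene of each class, for all H3.3, H2A.Z, H1 and CENH3 genes and for genes called between genotypes. Of other lists, up to 3 called genes with the largest fold change are named.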

Additional observations from a re-analysis of the deposited data

Results flagged for a closer look

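For 4 members the difference between P10 and WT changed with age by the test of the difference itself, the interaction of line and day in edgeR. The log2 difference was 0.84 for the H4 gene AT1G07820 (adjusted p = 0.047), 0.89 for the H4 gene AT3G53730 (adjusted p = 0.031), 0.79 for the linker histone AT1G06760 (adjusted p = 0.042) and 5.21 for HIS1-3, AT2G18050 (adjusted p = 3.7e-04).

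For P21 the same test gave 11 members. The log2 difference was 0.97 for the H4 gene AT5G59690 (adjusted p = 0.044), 0.94 for AT1G09200 (adjusted p = 0.045) and 1.00 for AT5G65360 (adjusted p = 0.028), both of H3.1. Among the H2A families it was 1.16 for HTA13, AT3G20670 (adjusted p = 0.022), 0.96 for HTA10, AT1G51060 (adjusted p = 0.046), 1.09 for HTA6, AT5G59870 (adjusted p = 0.0093), 1.97 for HTA8, AT2G38810 (adjusted p = 0.03) and 1.74 for HTA11, AT3G54560 (adjusted p = 0.0097). It was 0.89 for HTB2, AT5G22880 (adjusted p = 0.042), 0.98 for HTB11, AT3G46030 (adjusted p = 0.028) and -3.15 for HIS1-3, AT2G18050 (adjusted p = 0.024). In this comparison index and the change of P21 cannot be told apart. Each group held 2 or 3 libraries, too few for a test of single libraries within a group.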

How the results depend on the processing

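The calls were recomputed under 25 other settings, 16 of which left out 1 library. No call turned its direction. All 25 kept 33 of the 35 calls in WT over time, 26 of 31 in P10, 20 of 26 in P21, 6 of 13 for P21 against WT at 9 DAS, 1 of 2 for P10 against WT and 1 of 6 for P10 against P21 at 16 DAS, and 1 of 4 and 1 of 11 for the change of P10 and of P21. Leaving out 1 library gave 33 to 35, 27 to 32 and 21 to 27 calls over time in WT, P10 and P21, 0 to 1 for P10 and 7 to 16 for P21 against WT at 9 DAS, 1 to 2 for P10 and 0 for P21 against WT at 16 DAS, 3 to 7 for P10 against P21, and 1 to 4 and 1 to 11 for the changes of P10 and P21. With P21 left with 1 library, that library is assumed to vary like the other groups.

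Without the fold threshold 11 members were called for P10 against P21 and 10 for P10 against WT at 16 DAS, the latter count being 6 with limma on RPKM, 4 with a replicate block and 1 with total reads. The change of P10 gave 2 calls without the filter, with the block, and with young WT and P10 limited to replicates 1 and 3. The change of P21 gave 6 with limma, 7 without the filter, 7 with only the groups compared and 3 with the block. Between groups, deviations from the group mean correlated at -0.171 to 0.467 for libraries of 1 replicate number at 9 DAS, and at -0.263 to 0.03 at 16 DAS. For libraries of different numbers the ranges were -0.439 to 0.524 and -0.167 to 0.263. P21 held 2 libraries, whose deviations mirror each other, so each of its correlations recurs with the opposite sign. The ranges are thus partly fixed by arithmetic and cannot show whether libraries of 1 number belong together. What replicates of 1 number share is not known, and the main fit does not pair by number. The cause of the differences between settings was not tested. RPKM scaling moved the median of all genes by -0.26 in WT over time, -0.31 in P21 over time, 0.17 for P10 over WT at 16 DAS, 0.19 for P10 over P21 and 0.18 for the change of P10. Class sums, and the percentages and ratios of ages drawn from them, also depended on scaling. Of 60 mean class sums, 36 moved by at least the SD of their group without TMM factors and 8 with total reads. Leaving out 1 library moved 0 of 160 by as much. In groups of 2 or 3 libraries it cannot shift a mean by the SD. This 0 was thus fixed in advance and says nothing on stability.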
